A study of Homo sapiens with 267 samples.

Results

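The erythroid transcription factors GATA1, GATA2, ZFPM1, TAL1, LMO2, LDB1, KLF1, NFE2, GFI1B and MYB were described over single libraries of K562 cells. The members were the 10 rows, of 63677 genes in the count table, whose Ensembl identifiers carry these symbols. K562 is an established human myelogenous leukaemia line with the BCR-ABL fusion kinase and an erythroid character. Libraries came from C1 microfluidic captures in 3 runs and fell into 5 groups by run and stain. In the Hoechst run, cells of passage 90 to 92 had Hoechst 33342 and propidium iodide and no drug. In the benzene and imatinib runs, cells of passage 20 to 22 had LIVE/DEAD Fixable Red, with CellTracker Green CMFDA on untreated cells and CellTracker Orange CMRA on treated ones. The labels attach hours to these passage values as a unit. Orange cells had benzene at 10 mM for 3 h, or imatinib, an inhibitor of the BCR-ABL kinase, at 1 µM for 1 h. Dye and drug therefore cannot be told apart within a run. Stain, passage, K562 lot, sequencing, selection of live cells and days of storage after fixation cannot be told apart between the Hoechst run and the others. By the paper, dead cells were sequenced too in its Hoechst experiment and were left out in its CellTracker experiments. The series holds DSP-fixed as well as fresh cells, captured on different days, and the study also sequenced bulk samples and empty capture sites. The labels used here map none of these, so a group may mix them. Each run and stain is 1 culture in the labels. Libraries of a culture are not replicates of a condition, so no test between groups was made.

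GATA1 is the central regulator of red cell development, and GATA2 is its relative of stem and progenitor cells, which gives way to GATA1 as erythroid cells mature. GATA1 works with the cofactor ZFPM1 (FOG1) and in a complex with the E-box factor TAL1, the bridging LIM protein LMO2 and the scaffold LDB1. KLF1 binds CACCC boxes of globin genes, NFE2 pairs with small Maf proteins at globin control regions, GFI1B is a repressor that recruits the demethylase KDM1A, and MYB keeps progenitors dividing.

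In GRCh37, the build of the counts, the GATA factors and their cofactor lie as GATA1 (ENSG00000102145) at chrX:48644948-48652718, GATA2 (ENSG00000179348) at chr3:128198270-128212044 and ZFPM1 (ENSG00000179588) at chr16:88519688-88603439. The partners of the GATA1 complex are TAL1 (ENSG00000162367) at chr1:47681962-47697897, LMO2 (ENSG00000135363) at chr11:33880122-33913623 and LDB1 (ENSG00000198728) at chr10:103866246-103880125. The other factors are KLF1 (ENSG00000105610) at chr19:12995236-12998015, NFE2 (ENSG00000123405) at chr12:54685895-54694799, GFI1B (ENSG00000165702) at chr9:135819387-135867074 and MYB (ENSG00000118513) at chr6:135502446-135540311.

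Promoter sequence is shown for 4 members, 3 with a GATA motif before the start and GATA1 itself without one, since these motifs are the letters that GATA factors read. The bases are the 250 before a RefSeq start (build GRCh38.p14), 5′ to 3′ on the gene's strand, with each GATAA or its reverse complement in capitals.
TAL1, chr1:47232336-47232585, minus strand: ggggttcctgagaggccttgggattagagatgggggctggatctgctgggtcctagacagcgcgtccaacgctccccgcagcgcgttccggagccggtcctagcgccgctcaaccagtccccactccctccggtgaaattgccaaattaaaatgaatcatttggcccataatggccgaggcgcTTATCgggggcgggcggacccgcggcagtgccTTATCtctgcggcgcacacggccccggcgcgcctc
KLF1, chr19:12887202-12887451, minus strand: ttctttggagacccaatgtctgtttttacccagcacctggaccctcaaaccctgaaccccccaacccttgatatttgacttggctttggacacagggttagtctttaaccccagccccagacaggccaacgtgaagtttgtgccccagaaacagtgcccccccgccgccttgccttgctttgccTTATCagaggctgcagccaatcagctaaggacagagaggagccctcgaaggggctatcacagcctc
GFI1B, chr9:132978444-132978693, plus strand: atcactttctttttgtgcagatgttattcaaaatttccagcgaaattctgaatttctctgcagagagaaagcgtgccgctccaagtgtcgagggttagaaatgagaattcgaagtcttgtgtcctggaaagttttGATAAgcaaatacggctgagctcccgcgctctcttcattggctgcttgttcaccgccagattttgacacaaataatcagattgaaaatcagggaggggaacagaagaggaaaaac
GATA1, chrX:48786340-48786589, plus strand: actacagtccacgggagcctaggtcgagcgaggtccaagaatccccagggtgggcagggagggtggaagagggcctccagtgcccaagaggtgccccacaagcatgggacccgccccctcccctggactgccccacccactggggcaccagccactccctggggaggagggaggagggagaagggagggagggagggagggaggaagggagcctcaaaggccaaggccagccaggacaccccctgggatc

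Motifs were searched on both strands in 300-base windows that also hold the 50 bases after the start. Of the 10 members, 8 matched the RefSeq promoter table, in 11 windows, while LMO2 and NFE2 did not. GATAA was found in 1 window each of TAL1, KLF1 and GFI1B, and in 22.7% of all 35116 windows. Its first base lay 67 and 35 bases before the start in TAL1, 66 before it in KLF1 and 115 before it in GFI1B. The CACCC-type pattern CCNCNCCC was found in 7 of the 8 members, all but KLF1. By window it was in 8 of the 11 of the members and in 56.2% of all windows. The GATA1 window held 4 such matches, a pair of which overlap. The E-box CANNTG was found in 4 members, in 5 of the 11 windows, and in 68.7% of all windows. The NFE2 core TGANTCA was found in 1 window of TAL1, alone of the members, and in 7.71% of all windows. These matches describe letters and not binding.

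The 242 libraries used held 50358 to 2043351 reads on genes. The median number of genes with more than 2 reads was 7410 in the Hoechst run, 5963 (Green) and 5860 (Orange) in the benzene run and 8082 (Green) and 7797 (Orange) in the imatinib run. The median mitochondrial share was 12.5% in the Hoechst run and 6.21% to 7.02% elsewhere. All 10 markers of erythroid K562 cells were present, with a summed level of 7562 to 9776 CPM by group. Of the marker lists of other cells, the T cell list summed to 11.8 to 144 CPM by group, B cell to 1.19 to 6.84 CPM, monocyte to 19.6 to 43.7 CPM, megakaryocyte to 1.53 to 54.1 CPM, fibroblast to 0.494 to 21.95 CPM and epithelial to 34.2 to 49.8 CPM. GP9, PF4, KRT5 and KRT14 had 0 reads, and CD3E, CD2, MS4A1, CD79A and PAX5 were under 1 CPM (reads per 1000000 reads on genes). Other genes of these lists were present, each with a mean of at least 5 CPM over the groups. They were CD3D (46.3), EPCAM (37.9), LYZ (27.6), ITGA2B (14.7) and COL1A2 (5.33). In the Hoechst run CD3D reached 129.9 CPM and ITGA2B 54.1 CPM. The part of these markers, of complexity and of mitochondrial reads in the values below was not tested.

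By level per length (CPM per kb of transcript, mean of the 5 groups), GATA1 came first at 304 and NFE2 next at 225. GFI1B (83.9), GATA2 (41.1), KLF1 (39.8), MYB (29.8) and TAL1 (28.6) followed, then LDB1 (8.17), LMO2 (5.05) and ZFPM1 (1.12). Neighbours in this order overlapped in their range over groups at all but 3 places. NFE2, at 183 to 286 CPM per kb, lay above GFI1B at 43.1 to 121. TAL1, at 23.7 to 36.6, lay above LDB1 at 2.64 to 15.1, and LMO2, at 2.78 to 8.55, above ZFPM1 at 0.00871 to 2.66. In CPM, GATA1 was higher than 96.8% and ZFPM1 higher than 4.17% of the 10320 genes with a mean of at least 5 CPM over the groups, a minimum that all 10 members passed.

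**Figure D1:**
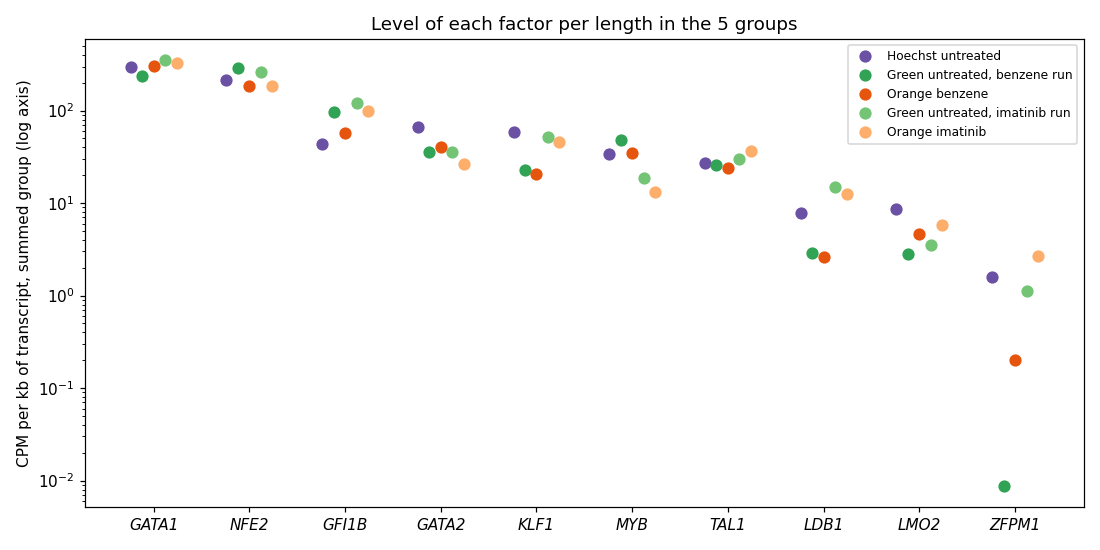
Level of each factor in CPM per kb of transcript (log axis), 1 point per group from summed counts. GATA1 and NFE2 lie highest, and ZFPM1 lies lowest, reaching 0.00871 in Green of the benzene run.

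GATA1 was over 100 CPM in most libraries of each group. In the Hoechst run libraries ran from 2.95 to 1787 CPM with a median of 336. In the benzene run Green ran from 0.679 to 1782 CPM (median 234) and Orange from 0 to 1237 CPM (median 294). In the imatinib run Green ran from 75.6 to 1244 CPM (median 462) and Orange from 0.810 to 1135 CPM (median 428). The groups overlapped, and Green of the imatinib run was the most uniform, with an SD of 0.89 over libraries on the log2(CPM + 1) scale against 1.63 to 2.77 in the others. The level from summed reads was 432 CPM in the Hoechst run, 350.2 (Green) and 445 (Orange) in the benzene run and 514 (Green) and 484 (Orange) in the imatinib run. The 95% exact Poisson interval of the first was 428 to 436 CPM; such intervals cover counting error only, since reads carry no molecular identifiers.

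GATA2 was highest in the Hoechst run, where libraries ran from 1.11 to 768 CPM with a median of 149. Green of the benzene run ran from 5.43 to 388 CPM (median 63.6) and Orange from 0 to 604 CPM (median 75.8). In the imatinib run Green ran from 5.14 to 638 CPM (median 95.1) and Orange from 0 to 459 CPM (median 76.8). Libraries of all groups overlapped. The summed levels were 222 CPM in the Hoechst run, 122 (Green) and 138 (Orange) in the benzene run and 122 (Green) and 89.6 (Orange) in the imatinib run. GATA2-AS1 overlaps exons of GATA2 in the gene models used here, which are not those of the counting. Strand in the counting is not given in the sources used here, and the paper lists ambiguous reads apart from assigned ones. What the overlap does to the GATA2 count was not tested. Per kb, GATA1 exceeded GATA2 in 216 of the 242 libraries, 70 of 82 in the Hoechst run, 54 of 65 in the benzene run and 92 of 95 in the imatinib run.

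ZFPM1 was near the limit of detection, with at least 1 CPM in 43 libraries and a median of 0 in all 5 groups. Its highest library had 402 CPM in the Hoechst run, 1.72 and 11.1 in Green and Orange of the benzene run and 104 and 169 in Green and Orange of the imatinib run. In the Hoechst run library 62 held 84.7% of its 893 reads, and Green of the benzene run had 2 reads in all. Its transcript has the highest GC content of the members, 68.9%, followed by KLF1 at 65.7%, where the median of tested genes was 47.1%.

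TAL1, LMO2 and LDB1, which join GATA1 in its complex, differed widely in level. The TAL1 median was 69.8 CPM in the Hoechst run (range 0 to 544), 69.4 and 40.05 in Green and Orange of the benzene run (0 to 512 and 0 to 780.4) and 138 and 131 in Green and Orange of the imatinib run (2.69 to 516 and 6.61 to 576). In the imatinib run all libraries had TAL1 above 1 CPM. An unnamed gene overlaps exons of TAL1 in the gene models used here. The LMO2 median was 3.37 CPM in the Hoechst run (range 0 to 174), 0.677 and 1.03 in the benzene run (0 to 34.98 and 0 to 102) and 2.08 and 0.860 in the imatinib run (0 to 64.3 and 0 to 139), Green first. The LDB1 median was 8.18 CPM in the Hoechst run (range 0 to 224), 0 in both groups of the benzene run (0 to 126 and 0 to 119.7) and 23.2 and 24.4 in the imatinib run (0 to 272 and 0 to 373). LDB1 was thus lowest in the run with the fewest genes per library.

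KLF1 was also lowest in the benzene run. Its median was 34.8 CPM in the Hoechst run (range 0 to 725), 2.98 and 6.32 in Green and Orange of the benzene run (0 to 546 and 0 to 331) and 52.7 and 25.8 in Green and Orange of the imatinib run (0 to 495 and 0 to 431). Library 48 held 50.5% of KLF1 reads in Green of the benzene run. NFE2, the second of the abundant factors, had a median of 214 CPM in the Hoechst run (range 0 to 1182), 345 and 202 in Green and Orange of the benzene run (0.734 to 1933 and 2.07 to 1773) and 398 and 236 in Green and Orange of the imatinib run (8.43 to 995 and 0 to 1533). In both of the latter runs its median was higher in Green than in Orange, with overlapping libraries.

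GFI1B was uneven between libraries. The median over groups of its SD on the log2(CPM + 1) scale was 3.21, the highest of the members, followed by KLF1 at 2.64, where the median of tested genes was 2.15. In the Hoechst run libraries ran from 0 to 715 CPM with a median of 8.56, and 42 of 82 were under 10 CPM while 21 were over 100. The benzene run had medians of 7.46 and 5.27 CPM in Green and Orange over ranges of 0 to 1324 and 0 to 1058, with 17 of 31 and 18 of 34 libraries under 10 CPM and 11 and 9 over 100. In the imatinib run more libraries were high. There the medians were 154 and 175 CPM, over ranges of 0 to 967 and 0 to 836, with 10 of 50 and 10 of 45 libraries under 10 CPM and 29 over 100 in each. TSC1 overlaps exons of GFI1B in the gene models used here.

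MYB was lowest in the imatinib run. Its median was 83.4 CPM in the Hoechst run (range 0 to 478), 73.5 and 73.2 in Green and Orange of the benzene run (0 to 742 and 0.872 to 435) and 54.5 and 28.5 in Green and Orange of the imatinib run (0 to 355 and 0 to 273). Libraries of all groups overlapped. The summed levels were 125.4 CPM in the Hoechst run, 177 (Green) and 128 (Orange) in the benzene run and 69.4 (Green) and 48.8 (Orange) in the imatinib run. MYB-AS1 overlaps exons of MYB in the gene models used here.

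**Figure D2:**
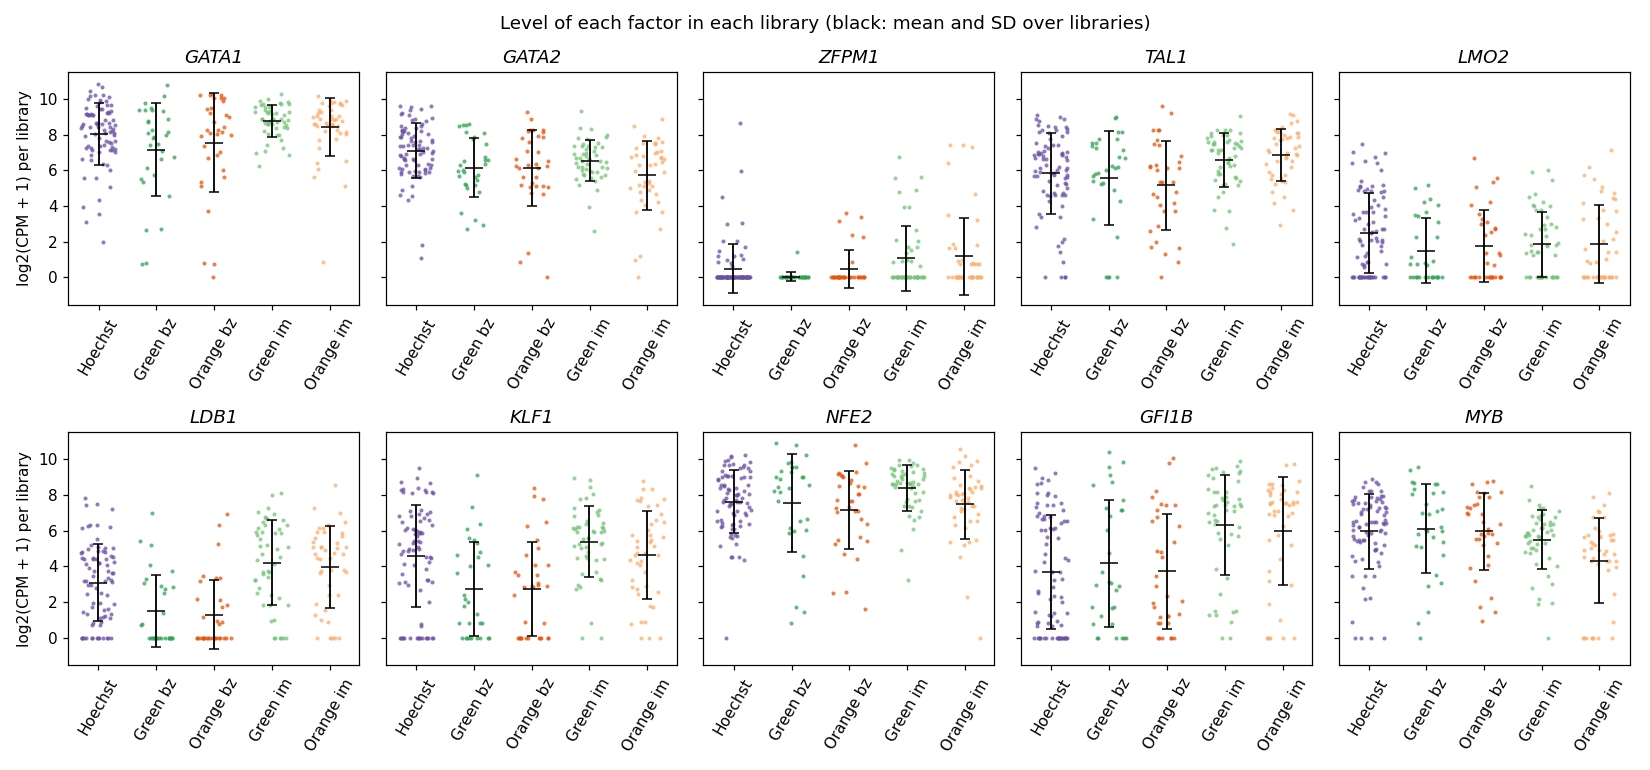
Each point is 1 library, on a log2(CPM + 1) axis, in the 5 groups (bz, benzene run; im, imatinib run), with the mean and SD over libraries as bars. GATA1 and NFE2 lie high, ZFPM1 lies mostly at 0, and GFI1B spreads from 0 to 1324 CPM in Green of the benzene run.

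Detection was taken as at least 1 CPM with ERCC spike-ins in the total. NFE2 was detected in 239 of 242 libraries, GATA2 in 237, GATA1 in 236, TAL1 in 231 and MYB in 224. KLF1 was detected in 188, GFI1B in 186, LDB1 in 166 and LMO2 in 133, where the median tested gene was detected in 69.8% of libraries. The groups differed most for the scaffold LDB1, found in 35.3% of Orange libraries of the benzene run (95% exact binomial interval 19.7% to 53.5%) and 84% of Green libraries of the imatinib run (70.9% to 92.8%). KLF1 was found in 58.1% of Green libraries of the benzene run and 94% of those of the imatinib run. MYB was found in 49 of 50 Green and 36 of 45 Orange libraries of the imatinib run. With libraries thinned to 500000 reads, which 2 libraries of the Hoechst run did not reach, and more than 2 reads asked for, LDB1 was found in 17.6% and 70% of the groups named above, against 32.4% and 84% before thinning.

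**Figure D3:**
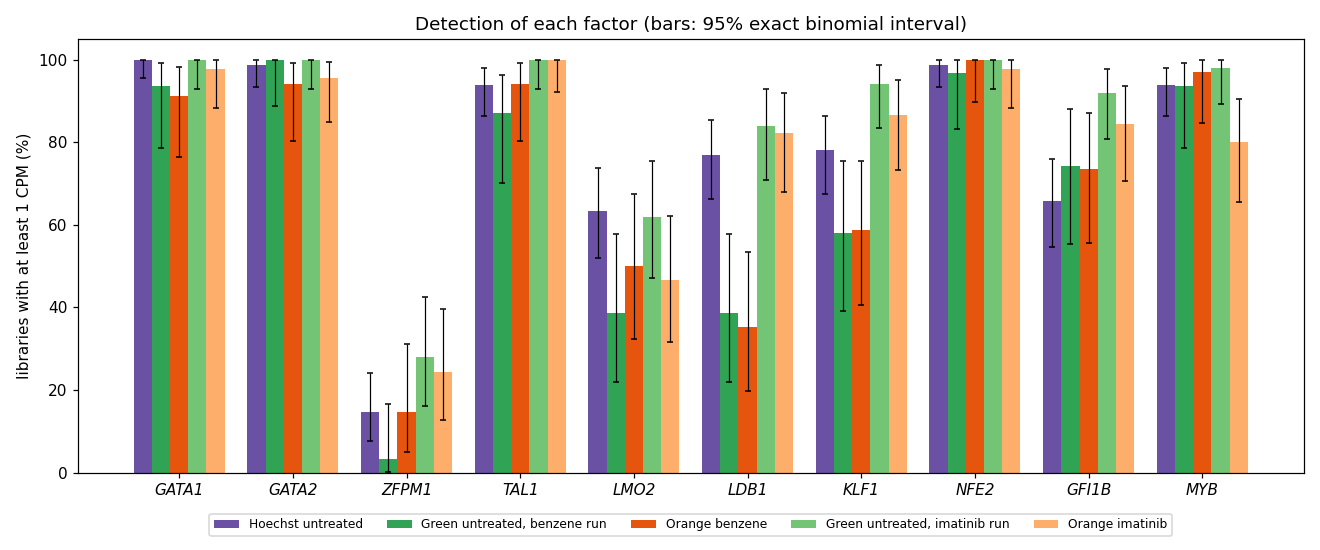
Share of libraries with at least 1 CPM of each factor, by group (bz, benzene run; im, imatinib run), with 95% exact binomial intervals over libraries. LDB1 is lowest in Orange of the benzene run, at 35.3%, and ZFPM1 reaches at most 28% of a group.

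Joint detection is limited by how often each factor was detected, and a link beyond that was not tested. The factors detected most often were found together in most libraries, while the full set, limited by ZFPM1 in 43 libraries, seldom was. GATA1, GATA2, TAL1, NFE2 and MYB were all detected in 205 of 242 libraries, and both GATA factors in 232. GATA1, TAL1, LMO2 and LDB1, the parts of 1 complex, were all detected in 40 of 82 libraries of the Hoechst run, 11 of 65 of the benzene run and 45 of 95 of the imatinib run. All 10 factors were detected in 21 libraries. The median number of factors per library was 8 in the Hoechst run, 7 in the benzene run and 9 in the imatinib run, the order of the number of genes per library. The 12 libraries with more than 10000 genes may include bulk samples, which the labels do not mark. In them 9 of the factors were detected in all 12 and ZFPM1 in 4. Libraries picked for many genes detect most genes by that choice, and the share of all tested genes detected in all 12 was not computed. In these 12 libraries GATA1 ran from 269 to 629.7 CPM, GFI1B from 48.4 to 282 and KLF1 from 7.67 to 62.2, without the low libraries seen in the groups as a whole.

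The comparison of Orange with Green asks how the factors stood in drug-treated cells against untreated cells of the same run. Ratios are log2 of (CPM + 1) from summed reads, Orange over Green, which understates the change of low genes. In the imatinib run 2 of 10 members were past 1.5-fold, where 21.8% of the 10320 genes were, a like share. ZFPM1 stood at 1.11 and LMO2 at 0.66, with ratios of CPM of 2.35 (95% counting interval 2.08 to 2.65) and 1.66 (95% counting interval 1.48 to 1.88). NFE2 stood at -0.51, MYB at -0.50, GATA2 at -0.44, GFI1B and LDB1 at -0.28, KLF1 at -0.17, GATA1 at -0.09 and TAL1 at 0.30. The median of the members was -0.22 and that of all tested genes -0.02. The members past 1.5-fold changed with the scale. On the mean of log2(CPM + 1) over libraries, ZFPM1 (0.12) and LMO2 (0.02) were not past it. GATA2 (-0.82), KLF1 (-0.73), NFE2 (-0.92) and MYB (-1.16) were, all lower in Orange, so that 2 higher and 0 lower became 0 higher and 4 lower. The share of all tested genes past 1.5-fold on that mean was not computed. LMO2 fell under 1.5-fold without Orange library 45 (0.52), 50 (0.54), 53 (0.58) or 73 (0.25). NFE2 passed it without Orange library 73 (-0.61) or 80 (-0.63), and MYB without Orange library 7 (-0.60), 53 (-0.67) or 56 (-0.62). KLF1 came to 0.01 without Green library 52.

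In the benzene run 4 of 10 members were past 1.5-fold, where 47.3% of tested genes were. ZFPM1 (0.99) and LMO2 (0.63) were higher in Orange, and NFE2 (-0.64) and GFI1B (-0.74) were lower. The ZFPM1 value rests on 50 reads against 2, a ratio of CPM of 22.96 (95% counting interval 6.03 to 195). MYB stood at -0.46, GATA1 at 0.35, GATA2 at 0.18, TAL1 and LDB1 at -0.11 and KLF1 at -0.12. The median of the members was -0.11 and that of all tested genes 0.04.

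Single libraries decided several values of the benzene run. Each member but ZFPM1, GATA1, GATA2 and MYB crossed 1.5-fold or 0 when 1 library was left out. LMO2 came under 1.5-fold without Orange library 10 (0.48), 18 (0.54), 36 (0.50) or 51 (0.11). NFE2 did so without Green library 3 (-0.53), 5 (-0.56) or 37 (-0.48), and GFI1B without Green library 2 (-0.57), 52 (-0.54) or 57 (-0.35). The globin activator KLF1 turned sign without Green library 16 (0.03) or 48 (0.81), and TAL1 without Green library 49 (0.07) or 63 (0.03). LDB1 turned sign without Green library 19 (0.57), 20 (0.07) or 49 (0.06) and reached -0.73 without Orange library 41.

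**Figure D4:**
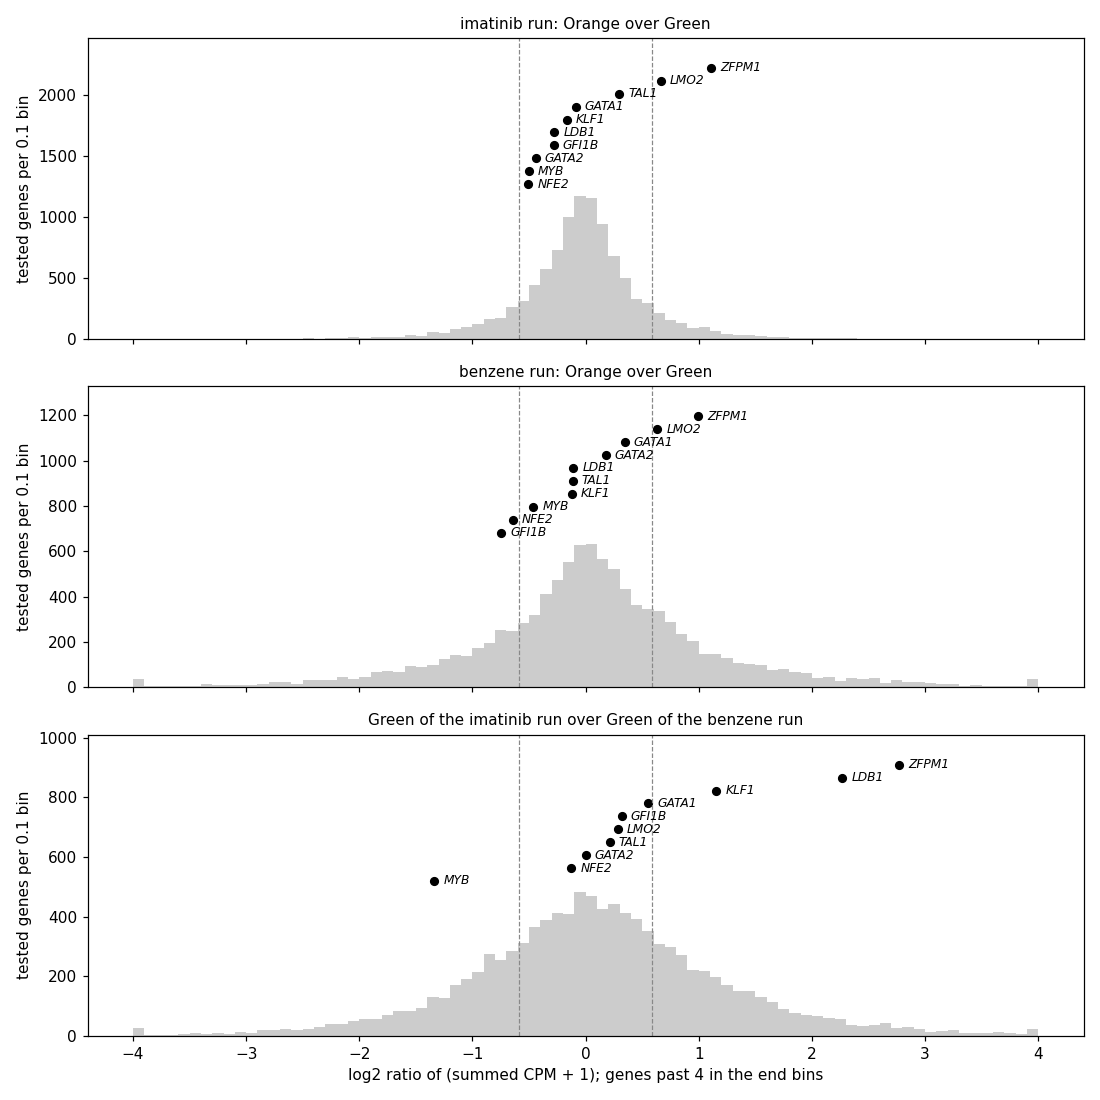
Grey bars count tested genes by log2 ratio of (CPM + 1), points are the factors (their height only separates the names), and dashed lines mark 1.5-fold, for Orange over Green in the imatinib and benzene runs and Green of the imatinib run over Green of the benzene run. The factors past 1.5-fold number 2, 4 and 4.

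The Green groups of the benzene and imatinib runs carry the same label, and their ratio, imatinib run over benzene run, shows how far runs differ. Of the members 4 were past 1.5-fold, where 53.9% of tested genes were. LDB1 (2.27) and KLF1 (1.15) were higher and MYB (-1.34) lower in Green of the imatinib run, each by more than its Orange to Green ratio in either run. ZFPM1 stood at 2.77, on 388 reads against 2, a ratio of CPM of 130.1 (95% counting interval 35.8 to 1078). GATA1 stood at 0.55 and passed 1.5-fold without any 1 of 8 Green libraries of the benzene run (2, 5, 20, 29, 37, 47, 48 and 62), reaching 0.77 without library 5. The ratio of CPM of GATA2 was 0.9997 (95% counting interval 0.965 to 1.04). NFE2 (-0.13) came to 0.04 without Green library 37 of the benzene run, and GFI1B (0.32) to 0.71 without library 57 of it. LMO2 stood at 0.29 and TAL1 at 0.21. On the mean of log2(CPM + 1) over libraries, GFI1B was 2.13, GATA1 1.61, TAL1 1.01 and NFE2 0.84, all past 1.5-fold. LDB1 (2.73), KLF1 (2.67), ZFPM1 (1.01) and MYB (-0.63) stayed past it, while GATA2 (0.40) and LMO2 (0.36) did not reach it. The GFI1B median was 154 CPM in Green of the imatinib run and 7.46 CPM in Green of the benzene run. The share of all tested genes past 1.5-fold on that mean was not computed.

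The Hoechst run was set against each Green group, in ratios that share the Hoechst libraries. Of the members 5 were past 1.5-fold against Green of the imatinib run, where 55.7% of tested genes were, and 6 against Green of the benzene run, where 60% were. Under TMM or DESeq2 factors the latter count was 8, with 5 higher and 3 lower, where 59.9% and 60.1% of tested genes were past it. DESeq2 size factors shifted the median of all tested genes by -0.11 and -0.19, so the ratios below are relative to the median of tested genes, against the imatinib run first. GATA2 stood at 0.75 and 0.67, and LMO2 at 1.07 and 1.27. The repressor GFI1B stood at -1.59 and -1.36. Against Green of the benzene run GFI1B was -1.17 before centring and came to -0.77 when 1 library was left out. On the mean of log2(CPM + 1) over libraries it was -0.49, not past 1.5-fold. Its median was 8.56 CPM in the Hoechst run and 7.46 CPM in that Green group. LDB1 (-1.03 and 1.15) and MYB (0.74 and -0.69) lay on opposite sides against the Green groups, and KLF1 stood at 0.07 and 1.14. GATA1 stood at -0.36 and 0.11, NFE2 at -0.41 and -0.62, and TAL1 at -0.24 and -0.11, the last being 0.08 before centring. The mean of log2(CPM + 1), uncentred, gave another picture against Green of the imatinib run. GATA1 (-0.72), TAL1 (-0.76), KLF1 (-0.80) and NFE2 (-0.76) were lower past 1.5-fold in the Hoechst run. LMO2 (0.63), LDB1 (-1.13) and GFI1B (-2.62) were past it too, while GATA2 (0.55), MYB (0.47) and ZFPM1 (-0.57) were not. The share of all tested genes past it on that mean was not computed. Against Green of the benzene run ZFPM1 stood at 3.19 before centring, on 893 reads against 2. ZFPM1, at 0.42 before centring against Green of the imatinib run, came to -1.61 without Hoechst library 62, and passed 1.5-fold without Green library 64 (0.61), 65 (0.59) or 69 (0.85).

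Pairs of factors were compared over the libraries of a run by Spearman correlation, centred within stain. The median of the 45 pairs was 0.08 in the Hoechst run (82 libraries), 0.02 in the benzene run (65) and 0.09 in the imatinib run (95). Over all pairs of 3943 genes with a mean of at least 50 CPM the medians were 0.03, 0.05 and 0.03. ZFPM1, LMO2 and LDB1 lay under that minimum, and the 21 pairs of the other 7 members had medians of 0.11, 0.04 and 0.09. The 10th and 90th percentiles over all pairs of the 3943 genes were -0.15 and 0.20, -0.15 and 0.24, and -0.14 and 0.20. Libraries share culture and vary in depth and complexity, so these values are descriptions. In the order of runs above, KLF1 and GFI1B gave 0.08, 0.33 and 0.29, and LDB1 and KLF1 gave 0.15, 0.22 and 0.20. KLF1 and NFE2 gave 0.17, 0.35 and 0.04, and NFE2 and MYB gave 0.04, 0.04 and 0.32. GATA1 and GATA2, the latter giving way to the former as erythroid cells mature, gave 0.01, -0.01 and 0.12. TAL1 and LDB1, partners in 1 complex, gave -0.07, -0.13 and -0.09. In the benzene run LDB1 (0.43), KLF1 (0.37) and GFI1B (0.36) also went with the number of genes per library.

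**Figure D5:**
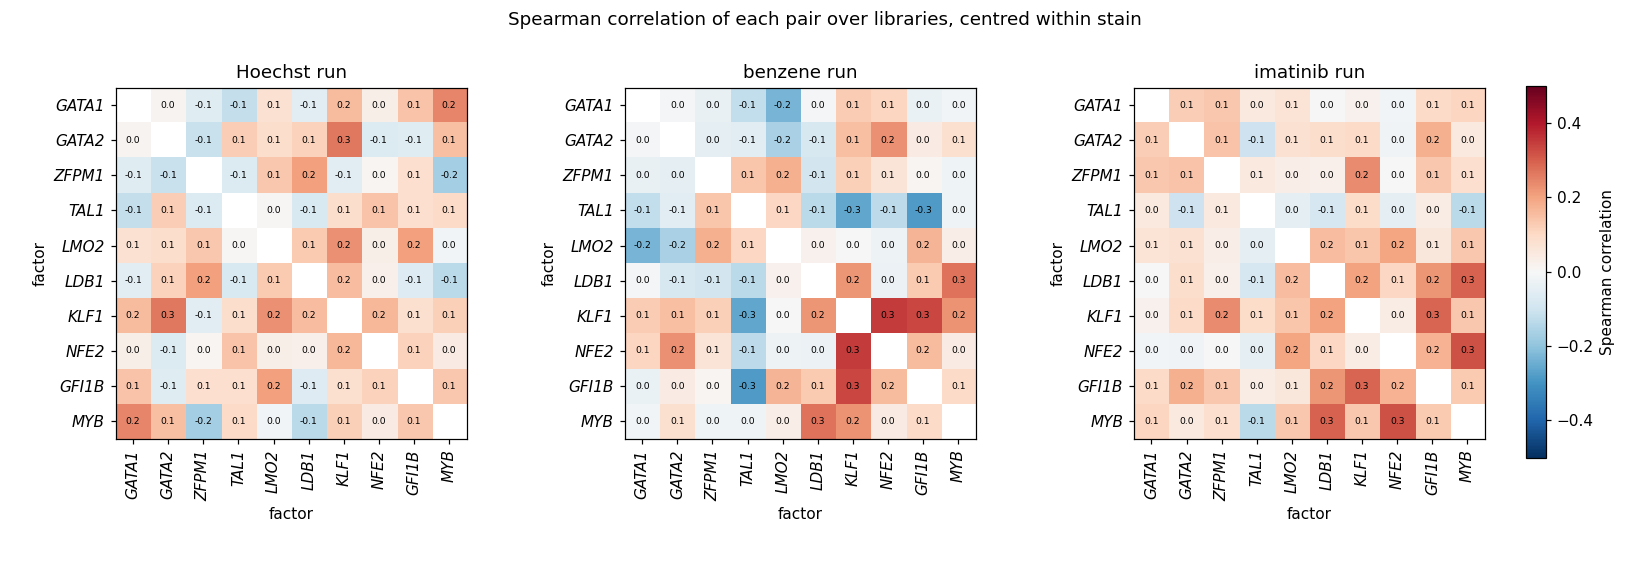
Spearman correlation of each pair of factors over libraries of a run, centred within stain, on a colour scale with the value in each cell. The highest pair is KLF1 and NFE2 in the benzene run, at 0.35, and most cells are pale.

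The genes whose levels over libraries were most like those of GATA1, by the mean Spearman correlation over the 5 groups, were ATP6V1F (0.32), MRPL37 (0.31), EIF6 (0.31), SLC25A39 (0.27) and POLR2E (0.26), of 3942 candidates. The gene most like GATA2 was PRRC2A (0.32), that most like ZFPM1 was MAGEC1 (0.25) and that most like TAL1 was STRBP (0.28). For LMO2 it was PHF14 (0.27), for LDB1 WDR46 (0.31), for KLF1 RPS2P46 (0.32), for NFE2 WDR4 (0.31), for GFI1B UTP14A (0.33) and for MYB RNF213 (0.29). These are the highest values among all candidates and describe these libraries.

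The wider network was read from lists of other genes, on the same scale of log2 ratios; the lowest gene of a list is that among genes with a mean of at least 1 CPM. Over all tested genes, 9.91% were higher and 11.9% lower past 1.5-fold in Orange of the imatinib run, and 25.5% higher and 21.8% lower in Orange of the benzene run, the background for each list below. Of 10 tested partners of the LIM and E-box complex, 0 were higher past 1.5-fold and 2 lower in Orange of the imatinib run, and 1 higher and 2 lower in Orange of the benzene run. CBFA2T3, the corepressor ETO2 of the TAL1 complex, stood at -1.24 in the imatinib run and -2.24 in the benzene run. TCF12, an E-protein partner of TAL1, stood at 1.15 in the benzene run, and CBFA2T2, a relative of CBFA2T3, at -0.91. SSBP3, which stabilises LDB1, had the highest level of the list at 20.8 CPM per kb and the LIM-only paralog LMO4 the lowest at 2.12. LDB2 and RUNX1T1, paralogs of LDB1 and of CBFA2T3, were under 1 CPM.

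Of 5 tested small Maf, BACH and NFE2-like factors, 0 were higher and 2 lower in the imatinib run, and 2 higher and 1 lower in the benzene run. NFE2L1 stood at -0.69 in the imatinib run and 0.60 in the benzene run. NFE2L2, the oxidative stress factor NRF2, was highest of the list at 68.02 CPM per kb and stood at -0.97 in the benzene run. BACH2 was lowest at 0.330 CPM per kb, and the small Maf gene MAFK was under 1 CPM.

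Of 16 tested corepressors and coactivators, 3 were higher and 3 lower past 1.5-fold in the imatinib run (all genes, 9.91% and 11.9%), and 5 higher and 3 lower in the benzene run (all genes, 25.5% and 21.8%). MBD3, a subunit of the NuRD complex to which ZFPM1 binds, stood at -0.78 in the imatinib run and -0.89 in the benzene run. GATAD2A, another NuRD subunit, stood at -0.76 and -0.62, and RCOR1, the partner of KDM1A, at 0.78 and 0.61. MTA2, a further NuRD subunit, named after its values were seen, was past 1.5-fold in opposite directions, at 1.31 and -1.58. GATAD2B stood at 0.65 in the imatinib run, and the acetyltransferase gene CREBBP at 0.76 and RBBP7 at 0.64 in the benzene run. HDAC1 had the highest level at 87.99 CPM per kb and MTA1 the lowest at 0.613.

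Most paralogs of the factors were low: of 21 listed, 8 were tested, and GATA3, GATA4, GATA5, GATA6, GFI1, TAL2, LMO1, LMO3 and KLF2 were under 1 CPM. Of those tested, 1 was higher and 2 lower past 1.5-fold in the imatinib run, where 21.8% of all genes were past it either way, and 2 higher and 4 lower in the benzene run, where 47.3% were. ZFPM2, the paralog of ZFPM1, had 4.96 CPM per kb against 1.12 of ZFPM1, and stood at 0.67 in the imatinib run and 1.21 in the benzene run. MYBL2, the MYB relative of dividing cells, was highest at 75.2 CPM per kb and stood at -1.14 in the benzene run. KLF6 stood at -1.27 in the imatinib run and KLF10 at -0.80 in the benzene run, and MYBL1 was lowest at 0.348 CPM per kb.

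Of the 20 other haematopoietic factors listed, CEBPA and HOXA9 had 0 reads, and SPI1, FLI1, ERG and BCL11A were under 1 CPM. Of the 12 tested, 0 were higher and 0 lower in the imatinib run, and 3 higher and 1 lower in the benzene run, where ETV6 stood at 1.16, RUNX1 at 0.85 and SOX6, a repressor of embryonic globin, at -0.82. STAT5A, which acts downstream of BCR-ABL, was highest at 104 CPM per kb and ZBTB7A lowest at 0.598.

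Erythroid target genes, on which these factors act, were led by the fetal globin HBG2 at 4309 CPM per kb, with SLC4A1 lowest at 0.289 and the adult globin HBB under 1 CPM. Of 20 tested, 1 was higher and 2 lower in the imatinib run, with a median of -0.13, and 3 were higher and 3 lower in the benzene run, with a median of 0.16. HEMGN stood at -0.59 in the imatinib run. In the benzene run ALAS2, the erythroid enzyme that starts haem synthesis, stood at -3.80 and GYPB (glycophorin B), a red cell surface protein, at 0.75. ALAS2 had 84.8 CPM in Green and 5.17 CPM in Orange of that run, and was detected in 115 of all 242 libraries. How far single libraries set the ratios of listed genes was not tested. Before centring, 12 of the targets were lower past 1.5-fold and 2 higher in the Hoechst run than in Green of the imatinib run, where 23.7% of all tested genes were lower and 32.02% higher. Against Green of the benzene run 11 were lower and 3 higher, where 23.7% and 36.4% of all tested genes were.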

How the data were processed

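The authors trimmed reads with skewer, aligned them with HISAT2 to GRCh37 with ERCC sequences and counted unique reads on Ensembl genes with featureCounts (Subread 1.5.0 per the labels), and deposited read counts per gene. A deposited CPM table was not used. Whether counting used strand is not given in the sources used here. Of 267 titles, 263 matched a column, and 4 columns that matched no title were not used. The comparisons used the 242 libraries whose 500 most abundant genes took at most 70% of reads, and set aside the other 21.

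CPM was computed per 1000000 reads on genes, ERCC left out. Reads were summed per group, genes with a mean of at least 5 CPM were tested against 1.5-fold, and ratios used a pseudocount of 1 CPM. With 1 culture per group no test was run. Intervals are exact (95%) and cover counting error only. Gene models came from GENCODE v44lift37, promoters from RefSeq. The authors counted on models of an Ensembl release, in which positions and exon overlaps may differ. Tools were Python 3.11.15, numpy 2.4.6, pandas 2.3.3, scipy 1.17.1, and edgeR 4.0.16 and DESeq2 1.42.0 for alternative scaling factors. The ratio code was tested on simulated data.

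The members and lists were chosen with earlier results of these data known. Text names all members, each list's highest and lowest gene per length among those detected, up to 2 genes per direction past 1.5-fold with at least 20 CPM, and the genes most like a member. Some genes that this rule names are not reported here.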

Additional observations from a re-analysis of the deposited data

Results flagged for a closer look

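The Orange to Green log2 ratio lay on opposite sides of 0 in the imatinib and benzene runs for 3 factors. In each, the counting intervals of both ratios left out 0. The share of all tested genes on opposite sides was not computed. GATA1 stood at -0.09 in the imatinib run and 0.35 in the benzene run, and GATA2 at -0.44 and 0.18. On the mean of log2(CPM + 1) over libraries the benzene value of GATA2 was -0.01, which ends its opposite sign. TAL1 stood at 0.30 and -0.11, and its benzene value turned sign without Green library 49 (0.07) or 63 (0.03). The difference between runs was not tested, since each group is 1 culture.

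Reads of 9 factors were also found in the 21 libraries left out of the comparisons, those with over 70% of reads in their top 500 genes. GATA1 had 2978 reads there, NFE2 5313, MYB 1050, GATA2 915, TAL1 317, KLF1 132, LMO2 38, LDB1 28 and GFI1B 5. GATA1 was detected in 19 of these libraries, NFE2 in 17 and GATA2 in 16, while ZFPM1 had 0 reads. Their mitochondrial share ran from 0.423% to 88.9%.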

How the results depend on the processing

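The number of members past 1.5-fold in the imatinib run, 2 in the report, was 1 with equal weight of libraries, 4 on the mean of log2(CPM + 1) over libraries (GATA2, KLF1, NFE2 and MYB, all lower, in place of ZFPM1 and LMO2, both higher), 1 without the highest library of a gene in each group, 1 with a pseudocount of 10 CPM and 1 at a 2-fold threshold. In the benzene run, with 4, it was 0 on the mean of log2(CPM + 1), 2 with a pseudocount of 10 CPM and 0 at a 2-fold threshold. Between the Hoechst run and Green of the imatinib run, with 5, it was 2 at a 2-fold threshold. There the mean of log2(CPM + 1) took GATA2 and MYB under 1.5-fold. It put GATA1, TAL1, KLF1 and NFE2 past it, all lower in the Hoechst run. Between the Green groups, with 4, it was 8 on the mean of log2(CPM + 1). The share of all tested genes past 1.5-fold on that mean was not computed for any contrast. Of 60 counts of members past 1.5-fold, 50 stayed within 1.5 times the reported one. Of 50 member ratios, 21 were past 1.5-fold, all 21 kept their sign in the 10 settings, and 11 stayed past 1.5-fold in each. No paired analysis was possible because the numbers in the titles name single libraries and give no pairing. No test between groups was made. ZFPM1 had 2 reads in Green of the benzene run, and 1 culture per group limits all comparisons.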

Other observations

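GATA1 was under 1 CPM in 6 of the 242 libraries, with 0 reads in 1 of them. These were Green libraries 65 and 69 and Orange libraries 21, 38 and 58 of the benzene run and Orange library 29 of the imatinib run. Between 3 and 6 of the other factors were detected in each, at totals of 1234117 to 1472696 reads.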
